A study of Mus musculus with 5 samples.

Results

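The Dlk1-Dio3 imprinted domain lies on mouse chromosome 12 and is followed here through 5 of its genes, Dlk1, Rtl1, Meg3, Rian and Mirg, chosen by symbol out of the 32285 genes measured in every cell of 5 synovial sarcoma (SyS) tumors. In this domain the parental origin of a chromosome decides which genes are active. Dlk1 and Rtl1 are known to be expressed from the paternal chromosome, while Meg3, Rian and Mirg are long noncoding RNAs of the maternal chromosome. Dlk1 encodes a transmembrane protein with EGF-like repeats, a relative of the Notch ligands that holds back adipocyte differentiation and is high in embryonic tissues. Rtl1 derives from a retrotransposon and is needed in placenta and muscle. Rian hosts small nucleolar RNAs and Mirg hosts microRNAs. The counts carry no allele information, so the parental origins are background and were not measured.

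The mice carried a human SS18::SSX2 fusion gene at Rosa26 that was silent until TATCre protein, injected into a limb soon after birth, removed its stop; this model is called hSS2. All 5 tumors share that genotype and treatment, and none is an untransformed control. The labels name 2 biphasic tumors (BP replicates 1 and 2) and 1 each of monophasic (MP), MP+BP and poorly differentiated plus monophasic (PD+MP), so every label other than BP rests on 1 tumor. Nothing in the labels says whether the BP tumors came from separate mice. Their sample titles share a leading number that the other tumors do not carry, and its meaning is not stated. Tumor cells were dissociated from each harvested tumor and sequenced from the 3′ ends of transcripts with unique molecular identifiers (UMIs), so that levels below are UMI counts scaled to the same total in every set of cells (CPM).

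In the GRCm38 genome and GENCODE M21, Dlk1 occupies chr12:109452823-109463336 on the plus strand and Meg3 chr12:109541001-109571726, also on the plus strand. Rtl1 runs on the minus strand at chr12:109589193-109600330. Rian follows at chr12:109603940-109661716 and Mirg at chr12:109729764-109749460, both on the plus strand. Annotation places 13 small nucleolar RNAs within Rian and 14 microRNA hairpins within Mirg. One annotated transcript, Gm26906, runs antisense within Meg3 and is not among the measured genes.

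The start regions of Dlk1 and Meg3, one for each parental side of the domain, are shown from RefSeq (GRCm38.p6), 250 bases before to 50 after the start. Capitals mark matches, on either strand, to the TATA box (TATAAA), the CCAAT box and the cAMP response element (TGACGTCA).
Dlk1, chr12:109452573-109452872, plus strand: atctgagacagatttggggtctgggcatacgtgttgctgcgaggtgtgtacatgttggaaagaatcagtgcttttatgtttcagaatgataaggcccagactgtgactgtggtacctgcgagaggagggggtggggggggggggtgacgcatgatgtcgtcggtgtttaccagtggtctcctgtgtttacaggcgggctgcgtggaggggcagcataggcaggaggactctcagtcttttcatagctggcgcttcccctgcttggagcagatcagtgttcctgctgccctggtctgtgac
Meg3, chr12:109540746-109541045, plus strand: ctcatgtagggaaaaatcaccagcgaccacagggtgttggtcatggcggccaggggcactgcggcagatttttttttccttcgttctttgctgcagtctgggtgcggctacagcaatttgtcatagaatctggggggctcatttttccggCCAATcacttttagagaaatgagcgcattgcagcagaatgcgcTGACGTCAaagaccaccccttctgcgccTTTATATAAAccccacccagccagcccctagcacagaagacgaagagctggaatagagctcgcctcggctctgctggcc
The Meg3 start region shown held all 3 motifs, with the TATA box matched once on each strand in an overlapping stretch. The Dlk1 start region held none of them, nor a GC box (GGGCGG). Of 32851 mouse promoters of the same length, 13.6% held the TATA box, 37.4% the CCAAT box, 1.79% the cAMP response element and 35.7% the GC box. The Dlk1 region contained 9 CG dinucleotides and the Meg3 region shown 13, against a median of 7 over all promoters. A second Meg3 start region in RefSeq, chr12:109545148-109545447, held none of these motifs, nor a GC box, and had 1 CG dinucleotide.

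Rtl1 is also crossed by a maternal transcript on the plus strand that carries microRNAs perfectly complementary to Rtl1 mRNA. RefSeq lists 6 hairpins with 11 mature microRNAs on the plus strand within the Rtl1 span. The following 4 are shown because they lie antisense to the gene whose counts are reported below, with the seed (bases 2 to 8) in capitals.
mmu-miR-431-5p: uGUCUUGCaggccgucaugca
mmu-miR-433-3p: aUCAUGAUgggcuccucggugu
mmu-miR-127-3p: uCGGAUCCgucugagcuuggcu
mmu-miR-136-5p: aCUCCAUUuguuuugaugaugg
All 4 have different seeds. The whole domain holds 58 hairpins and 113 distinct mature sequences with 104 seeds, of which 9 are shared. MicroRNAs were not measured by these libraries.

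The 5 libraries held 8931 to 11565 called cells and 89996321 to 118649103 UMIs, and any pair of them shared 15 to 33 cell barcodes. After filtering and removal of doublets, 39559 cells formed 33 clusters. The domain's own genes were left out of the clustering, so they did not define the classes. SyS-like cells (26402 cells in 17 clusters) were compared with stromal cells, made of 1254 pericyte-like and 144 fibroblast-like cells, with endothelial-like cells (2422) and with macrophage-like cells (3880). The stromal set differed in makeup between tumors, since 121 of the 144 fibroblast-like cells came from PD+MP. The labels give tumors and no cell types, and classes were named from marker genes. Another 4334 cells fell in unnamed clusters and were left out of the main comparisons. Of these, 2268 came from MP+BP, beside 4751 SyS-like cells of that tumor. The summed level of 15 SyS markers was 3340 to 4516 CPM in SyS-like cells, against 182 to 535 in stromal, 100 to 234 in endothelial-like and 119 to 189 in macrophage-like cells. Adgrb3 made up most of that sum, at 2347 CPM in all SyS-like and 70.6 CPM in all stromal cells. Penk alone of the 15 was lower in SyS-like than in stromal cells, at 4.40 against 15.8 CPM. EGFP, listed as an extra feature, stood at 30.5 to 42.4 CPM in SyS-like and 1.09 to 8.96 CPM in stromal cells.

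Dlk1 was detected in the SyS-like cells of all 5 tumors, at levels that differed more between tumors than those of the other 4 genes. SyS-like Dlk1 was 161 and 87.2 CPM in BP replicates 1 and 2, 261 CPM for MP, 40.8 for MP+BP and 164 for PD+MP, a mean of 143 ± 84.1 (SD, n = 5). The MP tumor was highest and MP+BP lowest, 6.398-fold apart, and the BP tumors also differed from each other. Stromal Dlk1 was 23.5 and 10.98 CPM in BP replicates 1 and 2, 46.0 CPM for MP, 68.1 for MP+BP and 37.7 for PD+MP. These stromal values rest on 34, 8, 126, 76 and 51 UMIs, and their 95% Poisson intervals, which cover counting error only, run from 4.74–21.6 CPM in BP replicate 2 to 53.7–85.2 CPM in MP+BP. SyS-like cells were above stromal cells in 4 of 5 tumors and below them in MP+BP, where Dlk1 was lowest in the SyS-like and highest in the stromal set. The stromal set of that tumor also had the highest SyS marker sum (535 CPM) and 1 cell that alone held 20 of its 76 Dlk1 UMIs.

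Meg3, which is read from the maternal chromosome and restrains growth in several cell types, was detected at 567 CPM or more in SyS-like and stromal cells alike. In SyS-like cells Meg3 was 866, 687, 670.3, 724 and 1263 CPM in BP replicate 1, BP replicate 2, MP, MP+BP and PD+MP, a mean of 842 ± 248 (SD, n = 5). In stromal cells, in the same order, it was 637, 567, 627, 1029.7 and 884 CPM, and both sets of values overlap. PD+MP stood highest among the SyS-like values, and MP+BP among the stromal ones.

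Rian and Mirg lie downstream of Meg3 on the same strand. Rian in SyS-like cells was 288, 288, 275, 295 and 535 CPM in the same tumor order, with 4 tumors within 275 to 295 and PD+MP well above them. Its stromal level was 191, 214, 195, 375 and 294 CPM. Mirg in SyS-like cells was 45.5, 49.8, 40.7, 43.6 and 51.2 CPM, a mean of 46.2 ± 4.36 (SD, n = 5), so it varied by 1.26-fold over the tumors. Its stromal level of 17.99, 16.5, 17.1, 40.3 and 29.6 CPM was lower than the SyS-like one in each of the 5 tumors. The highest stromal value of Mirg, 40.3 CPM in MP+BP, lay just under the lowest SyS-like one, 40.7 CPM in MP. Without the MP+BP stromal cell that held most Meg3 UMIs, that stromal value was 41.8 CPM, so the 2 sets then overlap. Stromal Mirg rests on 170 UMIs over the 5 tumors.

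Rtl1, the other paternally expressed gene, changed little over the tumors. In SyS-like cells Rtl1 was 22.6, 20.2, 19.6, 18.7 and 24.4 CPM, a mean of 21.1 ± 2.34 (SD, n = 5) and 1.30-fold from lowest to highest. Its stromal level was 13.8, 19.2, 12.4, 24.2 and 9.61 CPM, and the 2 sets overlap. Dlk1 and Rtl1, which share a parental chromosome, thus had the widest range over the tumors (Dlk1) and one of the 2 narrowest (Rtl1).

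**Figure D1:**
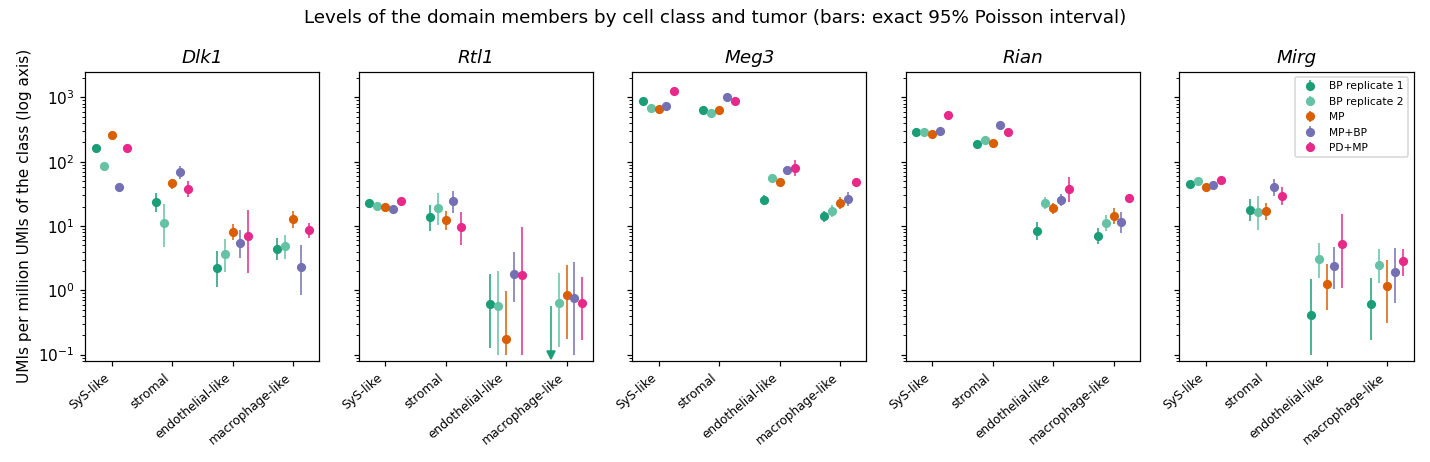
Level of each of the 5 genes (CPM, log axis) in SyS-like, stromal, endothelial-like and macrophage-like cells, 1 point per tumor with its exact 95% Poisson interval, drawn no lower than the axis; the triangle marks Rtl1 in macrophage-like cells of BP replicate 1, with 0 UMIs. SyS-like Dlk1 spreads from 40.8 to 261 CPM, while Mirg and Rtl1 points lie close together, and the endothelial-like and macrophage-like points lie below the SyS-like points for every gene.

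Whether the domain is higher in the transformed cells than in other mesenchymal cells of the same tumor was tested on UMI sums per tumor and class. Of the 5 genes, Dlk1 and Mirg were higher in SyS-like than in stromal cells, and Meg3, Rian and Rtl1 did not pass the test. Over all 18059 genes tested, 29.3% were called in either direction and 16.0% as higher in SyS-like cells, so 2 of 5 higher is a count on few genes. The log2 fold change was 1.69 for Dlk1 (SE 0.52, edgeR quasi-likelihood adjusted p = 0.0408) and 0.73 for Mirg (SE 0.24, edgeR adjusted p = 0.0499). For Meg3 it was -0.09 (SE 0.19, edgeR adjusted p = 0.770), for Rian 0.16 (SE 0.19, edgeR adjusted p = 0.578) and for Rtl1 0.22 (SE 0.26, edgeR adjusted p = 0.579). The median over all genes was 0.15.

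Both calls lie near the threshold. Mirg lost its call in 9 of 17 alternatives, with edgeR adjusted p of 0.153, 0.136 and 0.127 without BP replicate 1, BP replicate 2 or MP, and 0.0984 with doublets kept. Dlk1 lost its call in 7 of the 17. Dlk1 was no longer called without BP replicate 1, BP replicate 2, MP or PD+MP (edgeR adjusted p = 0.138, 0.124, 0.115 and 0.0510), and its log2 fold change rose to 2.29 (edgeR adjusted p = 0.000517) without MP+BP. With pericyte-like cells as the only stromal cells Dlk1 was 1.22 higher on the log2 scale (edgeR adjusted p = 0.0710), and with doublets kept it was 0.95 higher (edgeR adjusted p = 0.0249).

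The direction was opposite in MP+BP for 4 of the 5 genes. The log2 ratio of SyS-like to stromal Dlk1 was 2.77, 2.99, 2.51, -0.74 and 2.12 in BP replicate 1, BP replicate 2, MP, MP+BP and PD+MP. For Meg3 it was 0.44, 0.28, 0.10, -0.51 and 0.51, and for Rian 0.59, 0.42, 0.50, -0.34 and 0.87. Mirg alone was higher in the SyS-like cells of every tumor, by 1.34, 1.60, 1.25, 0.11 and 0.79. The stromal cell with most Meg3 UMIs in MP+BP was the one with most Dlk1 UMIs, and it held 29 SyS marker and 54 pericyte marker UMIs among 39559 in all, against a median of 3025 UMIs per cell in that stromal set. Left out after its values were seen, it moved the MP+BP ratio to -0.35 for Dlk1 and -0.37 for Meg3, without turning either direction. The MP+BP ratio of Mirg was then 0.06, so its higher level in that tumor is slight.

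Pericyte-like and fibroblast-like cells could be set apart only in part. Pericyte-like Dlk1 was 25.9, 11.2, 46.2, 74.1 and 133 CPM in the usual order, so PD+MP was highest there. The fibroblast-like cells of PD+MP, the only tumor with at least 20 of them, had Dlk1 at 15.5 CPM and Meg3 at 861 CPM.

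Each gene was also set against Meg3 in the same cells. In SyS-like cells there were 18.6, 12.7, 39.0, 5.65 and 12.96 Dlk1 UMIs per 100 Meg3 UMIs in BP replicate 1, BP replicate 2, MP, MP+BP and PD+MP. Rian gave 33.2, 41.8, 41.0, 40.8 and 42.3 UMIs per 100 Meg3 UMIs, so the ratio of these 2 maternal RNAs was alike in 4 tumors and lower in BP replicate 1. Mirg gave 5.25, 7.24, 6.07, 6.02 and 4.06, and Rtl1 2.61, 2.93, 2.92, 2.58 and 1.93. In PD+MP, where Meg3 and Rian were highest, the ratios of Mirg and Rtl1 to Meg3 were the lowest of the 5 tumors.

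In stromal cells the Dlk1 ratio was 3.69, 1.94, 7.33, 6.61 and 4.27 per 100 Meg3 UMIs, below the SyS-like ratio in 4 of 5 tumors. The log2 ratio rose from stromal to SyS-like cells in 5 of 5 tumors for Rian, by a mean of 0.24 ± 0.12 (SD, n = 5), and for Mirg, by 0.85 ± 0.42 (SD, n = 5). An exact two-sided sign-flip permutation test gave p = 0.0625 for each, which is the smallest it can give with 5 tumors, and adjusted p = 0.125 over the 4 ratios. For Dlk1 the mean was 1.77 ± 1.19 (SD, n = 5; exact permutation p = 0.125, adjusted p = 0.167). None of the 4 ratios could therefore pass a threshold of 0.05.

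**Figure D2:**
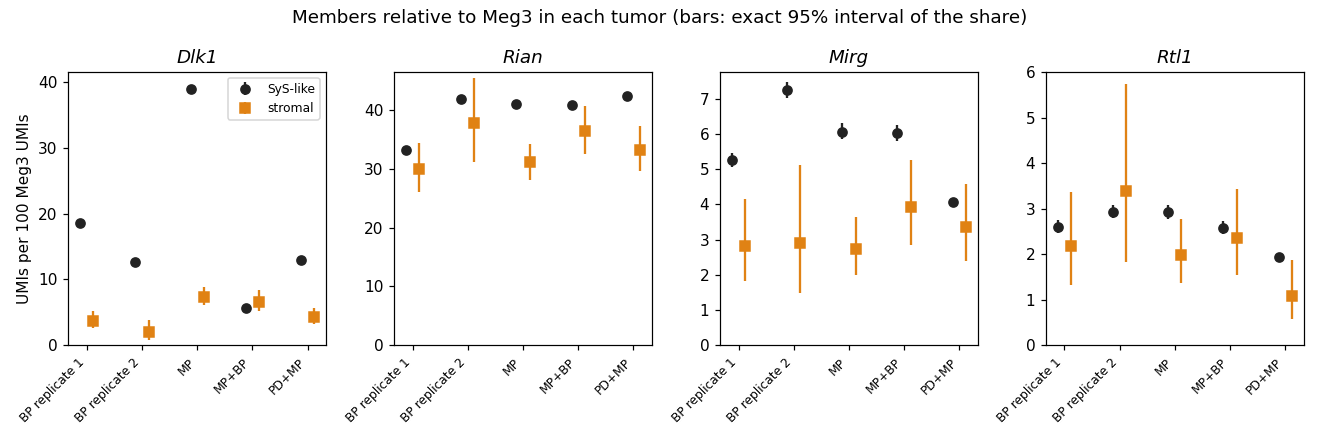
UMIs of Dlk1, Rian, Mirg and Rtl1 per 100 Meg3 UMIs in SyS-like (circles) and stromal (squares) cells of each tumor, with exact 95% intervals as bars. The Rian ratio stays between 29.97 and 42.3 in both classes, while the SyS-like Dlk1 ratio runs from 5.65 in MP+BP to 39.0 in MP.

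All 5 genes were higher in SyS-like than in endothelial-like cells and in macrophage-like cells. Endothelial-like levels ranged over the tumors from 2.25 to 8.15 CPM for Dlk1, 25.8 to 81.1 for Meg3, 8.38 to 38.0 for Rian, 0.409 to 5.18 for Mirg and 0.177 to 1.81 for Rtl1. Macrophage-like levels were 2.31 to 12.9 CPM for Dlk1, 14.1 to 47.6 for Meg3, 7.07 to 27.2 for Rian, 0.615 to 2.83 for Mirg and 0 to 0.859 for Rtl1. SyS-like and these 2 classes overlapped for none of the 5 genes, and the share of all genes without overlap was not computed. The highest macrophage-like Dlk1 level was in MP and the highest Meg3 and Rian levels in PD+MP, the tumors with the highest SyS-like levels of the same genes, and the part of free RNA in these low levels was not tested.

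Against endothelial-like cells the log2 fold changes were 4.44 for Dlk1, 3.72 for Meg3, 3.76 for Rian, 4.39 for Mirg and 4.52 for Rtl1 (edgeR adjusted p from 1.8e-06 to 1.64e-05). Of 18265 genes tested, 53.1% were called in either direction and 30.2% as higher. Against macrophage-like cells they were 3.85, 4.52, 4.04, 4.15 and 4.78 (edgeR adjusted p from 3.55e-08 to 3.85e-06), with 63.1% of 18041 genes called in either direction and 36.2% as higher. The medians over all genes were 0.17 and 0.23. Every one of the 5 genes kept both calls under each alternative tried for these 2 comparisons.

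**Figure D3:**
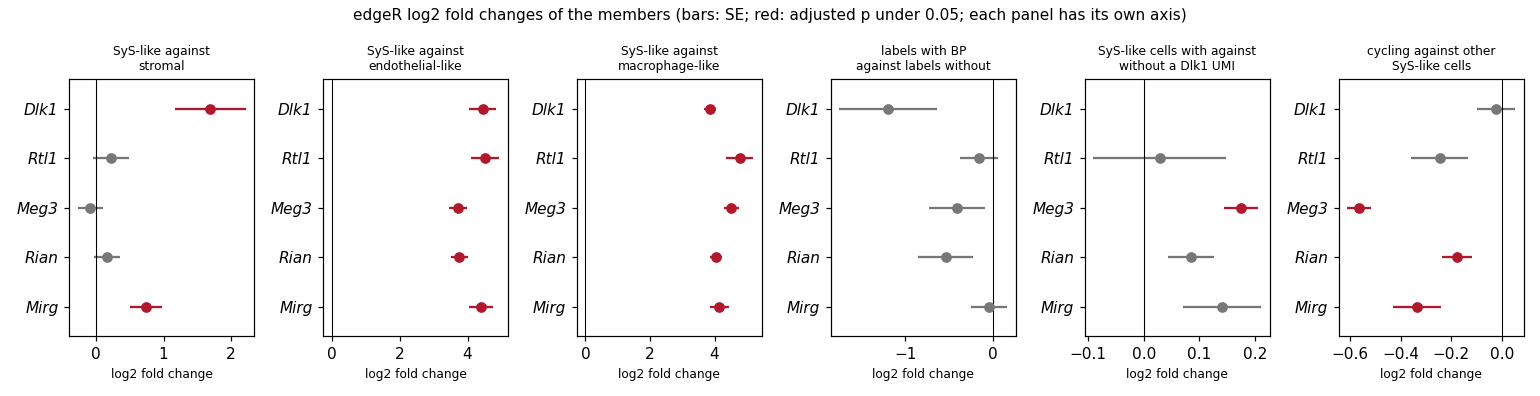
Log2 fold change of each gene, with its standard error (bars), as fitted by edgeR, in 6 panels with an axis each; red points have an adjusted p under 0.05. The endothelial-like and macrophage-like contrasts lie between 3.72 and 4.78 for all 5 genes, while the stromal contrast lies between -0.09 and 1.69.

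Seen against the other genes of SyS-like cells, Dlk1 was among the more variable between tumors and Mirg and Rtl1 among the steadier. Of 9867 genes with a mean of at least 10 CPM, whose median ratio of highest to lowest tumor was 1.67, a smaller ratio than that of Dlk1 was seen for 94.9%, than that of Rian for 66.4%, than that of Meg3 for 63.4%, than that of Rtl1 for 14.3% and than that of Mirg for 10.0%. These are descriptions of 5 tumors, without a test.

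Other imprinted genes varied widely too. Of 18 with at least 10 CPM the median ratio was 2.54, 11 were over 2-fold and 6 over 5-fold. Igf2, the imprinted growth factor, was 1341 CPM in PD+MP and 8.05 to 34.8 CPM in the other 4 tumors, and H19, the maternal RNA beside it, was 235 CPM in PD+MP and at most 0.493 CPM elsewhere. Peg3, a paternally expressed zinc finger gene, was 0.493 CPM in MP, the tumor with the highest Dlk1, and 25.3 to 39.5 CPM in the others. Ndn fell in a different order from Dlk1, with 62.5 CPM in BP replicate 1 and 5.82 CPM in PD+MP.

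**Figure D4:**
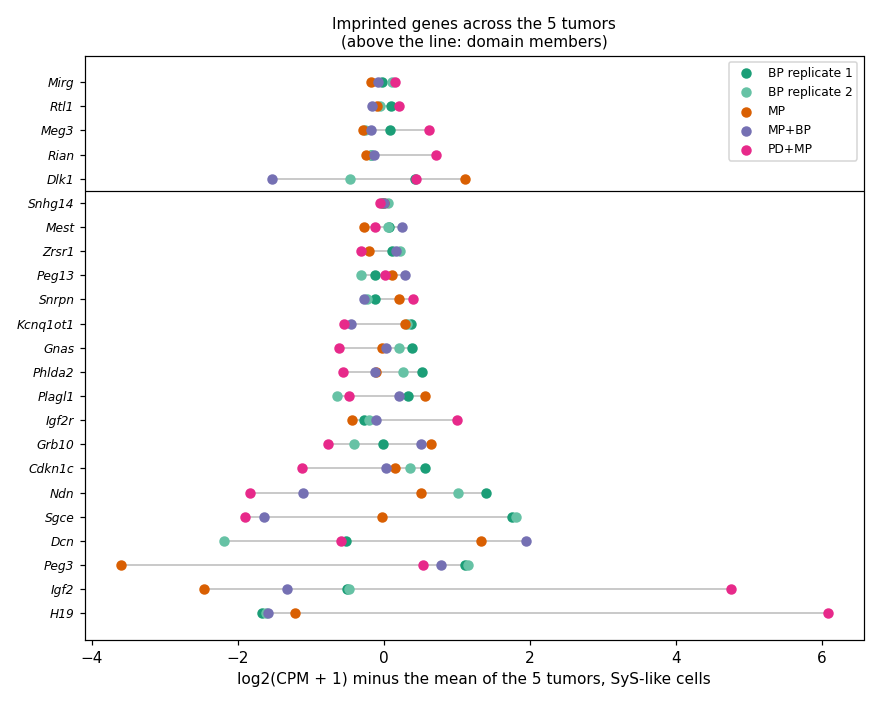
SyS-like level of each gene in each tumor, as log2(CPM + 1) minus the mean of the 5 tumors, for the domain's genes (above the line) and other imprinted genes with a mean of at least 10 CPM; points are tumors. MP+BP and MP lie furthest apart for Dlk1, PD+MP stands alone at the right for Igf2 and H19, and the points of Mirg and Rtl1 nearly coincide.

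The only split of the labels with more than 1 tumor on each side sets the 3 tumors with BP in the label against MP and PD+MP. None of the 5 genes was called. SyS-like Dlk1 was 161, 87.2 and 40.8 CPM in the tumors with BP against 261 and 164 CPM. The 2 sides nearly met, at 161.0 CPM in BP replicate 1 and 163.6 CPM in PD+MP. How many of all genes separate the 2 sides was not computed. The log2 fold change of Dlk1 was -1.20 (SE 0.56, edgeR unadjusted p = 0.0756, adjusted p = 0.566). Rian was -0.54 (edgeR adjusted p = 0.610) and Meg3 -0.41 (edgeR adjusted p = 0.690). edgeR called 0 of 20647 genes (0%) in this comparison, with 1884 at an unadjusted p under 0.05, while DESeq2 called 509. Without MP, edgeR called 617 genes, none of them a domain gene (Rian -0.99, edgeR adjusted p = 0.0612). Without PD+MP the fold changes of Meg3, Rian, Mirg and Rtl1 changed sign.

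Within SyS-like cells the noncoding RNAs and Rtl1 followed each other from cluster to cluster and Dlk1 did not follow them. Over the 17 SyS-like clusters Dlk1 ran from 35.2 CPM in cluster 25, which also led in Sst and Col1a1, to 332 CPM in cluster 6, of which 95.2% of cells came from MP. Meg3 ran from 508 CPM in cluster 11 to 1971 CPM in cluster 10, a PD+MP cluster with a median of 2909 UMIs per cell and Malat1 at 45243 CPM. Malat1 is a nuclear RNA, and cluster 16, with a median of 2628 UMIs, had Malat1 at 47635 CPM, Meg3 at 1179 CPM and the highest Rtl1 level of BP replicates 1 and 2. Pearson's r of log2 CPM over the 17 clusters, which share libraries, was 0.94 for Meg3 and Rian, 0.95 for Rtl1 and Mirg, 0.78 for Meg3 and Mirg, and -0.16 for Dlk1 and Meg3. For Rtl1 it was 0.74 with Meg3 and 0.72 with Rian, and for Rian and Mirg it was 0.73. With Malat1 it was 0.64 for Meg3, 0.69 for Rian, 0.69 for Mirg, 0.70 for Rtl1 and -0.28 for Dlk1. The part of nuclear RNA content in these relations was not tested.

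Clusters differed within a tumor as well. In MP, Dlk1 ran from 86.2 CPM in cluster 3 to 339 CPM in cluster 6, and in BP replicate 2 from 22.4 CPM in cluster 25 to 127 CPM in cluster 23. The ratio of highest to lowest cluster for Dlk1 was 2.20 and 5.68 in BP replicates 1 and 2, 3.93 for MP, 2.41 for MP+BP and 1.53 for PD+MP. In BP replicate 2 the cluster lowest in Dlk1 was the one highest in Meg3, at 1412 CPM, and in PD+MP cluster 10 was lowest in Dlk1 (131 CPM) and highest in Meg3 (1981 CPM). Cluster 6 held the highest Dlk1 level in MP and the lowest in MP+BP, at 32.0 CPM, so the same cluster did not carry the same Dlk1 level in both tumors.

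**Figure D5:**
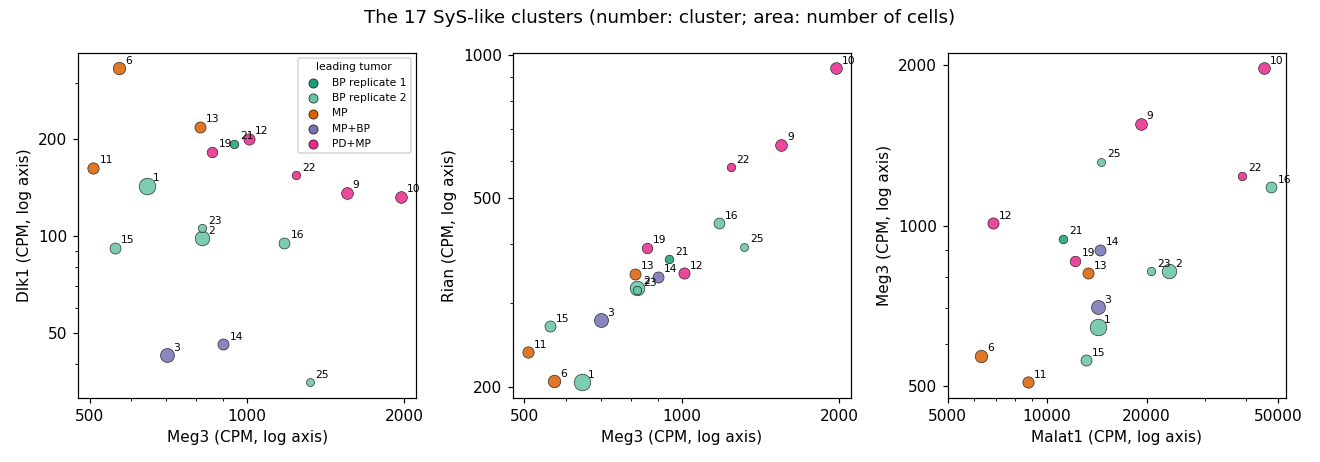
Dlk1 and Rian against Meg3, and Meg3 against Malat1 (CPM, log axes), in the 17 SyS-like clusters, 1 numbered point per cluster, its area the number of cells and its color the tumor that gave most of them. Rian rises with Meg3 along a narrow band (r = 0.94), while the Dlk1 points, from 35.2 to 332 CPM, show no such band (r = -0.16).

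At 1 fixed depth of 3000 UMIs per cell, Dlk1 was seen in 9.48% to 43.9% of the tumor cells and Meg3 in 75.2% to 87.9%. Dlk1 had at least 1 UMI in 32.5% and 21.2% of SyS-like cells of BP replicates 1 and 2, 43.9% for MP, 9.48% for MP+BP and 33.0% for PD+MP. Meg3 was seen in 82.6%, 77.2%, 75.2%, 75.6% and 87.9% of cells. Rian was seen in 46.9% to 49.2% of cells in 4 tumors and in 68.7% in PD+MP. Mirg was seen in 9.51% to 13.8% and Rtl1 in 5.42% to 6.77% of cells over the 5 tumors.

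At 6000 UMIs per cell, Dlk1 was seen in 48.5%, 34.6%, 62.3%, 15.9% and 50.7% of SyS-like cells, so its share depends on depth while MP stayed highest and MP+BP lowest. Thinning to 3000 UMIs left out 106 to 1121 SyS-like cells per tumor that had fewer UMIs. In macrophage-like cells treated alike, Dlk1 was seen in 0.714% to 2.71%, Meg3 in 4.56% to 9.01% and Rian in 1.14% to 6.49% of cells, shares below each SyS-like share. In stromal cells Dlk1 was seen in 4.57%, 0.962%, 10.1%, 10.8% and 4.08% of cells, so the MP+BP stromal share was close to the SyS-like share of the same tumor. The variance of UMIs per SyS-like cell divided by their mean, which is 1 for counting noise alone, was 1.48 to 1.93 for Dlk1, 1.74 to 2.93 for Meg3 and 1.04 to 1.21 for Rtl1.

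Dlk1 and Meg3 were often found in the same cell. Both were seen in 27.1%, 16.9%, 34.3%, 7.49% and 29.4% of SyS-like cells in the usual tumor order, and Dlk1 without Meg3 in 5.45%, 4.34%, 9.53%, 1.99% and 3.63%. The share with both was 1.01 to 1.04 times the product of the 2 single shares. Over single cells the median r of the 5 tumors was 0.28 for Meg3 and Rian and 0.05 for Dlk1 and Meg3, the latter too weak in such sparse counts to be read.

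SyS-like cells with a Dlk1 UMI, 429 to 1846 per tumor, were then compared with the 2361 to 5131 cells without one, all at 3000 UMIs. Meg3 was slightly higher in cells with Dlk1, and Rian, Mirg and Rtl1 did not pass the test. Meg3 was 921, 673, 688, 773 and 1319 CPM in cells with Dlk1 against 788, 669.9, 579.8, 676 and 1232 CPM in cells without, higher in 5 of 5 tumors and nearly equal in BP replicate 2. Its log2 fold change was 0.18 (SE 0.03, edgeR adjusted p = 0.000722), against 0.09 for Rian (edgeR adjusted p = 0.251), 0.14 for Mirg (edgeR adjusted p = 0.260) and 0.03 for Rtl1 (edgeR adjusted p = 0.932). Of 14274 genes tested 6.28% were called in either direction and 3.87% as higher, beside 1 of these 4 genes. With cells thinned to 6000 UMIs Rian was called too, at 0.15 (edgeR adjusted p = 0.0132).

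The genes that were highest beside Dlk1 were Ndufa4l2 (log2 fold change 0.77), a hypoxia-induced mitochondrial gene, Npy (0.55), a neuropeptide, Isg15 (0.49), Nptx2 (0.47) and Gata2 (0.47). The lowest were the collagen gene Col3a1 (-1.12), the peptide hormone gene Sst (-1.06), the collagen gene Col1a1 (-0.80), Sh3rf3 (-0.74) and Syt1 (-0.54). Sst and Col1a1 are also leading genes of cluster 25, the cluster lowest in Dlk1. Malat1 was also lower in cells with Dlk1, by a log2 fold change of -0.14.

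Cycling SyS-like cells, those with at least 3 UMIs of a 12-gene cell cycle list, had less Meg3 than the other SyS-like cells, and their Dlk1 level did not pass the test. Meg3 was 549, 513, 476, 501 and 898 CPM in cycling cells against 863, 704, 669, 716 and 1426 CPM in the others, lower in 5 of 5 tumors (log2 fold change -0.56, SE 0.05, edgeR adjusted p = 1.51e-08). Mirg (-0.33, SE 0.09, edgeR adjusted p = 0.00983) and Rian (-0.18, SE 0.06, edgeR adjusted p = 0.0298) were also lower. Rian was 253, 265, 244, 228 and 426 CPM in cycling cells against 254, 271, 255, 268 and 587 CPM in the others, so it was lower in 5 of 5 tumors, most in PD+MP and MP+BP and hardly in BP replicate 1.

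Without PD+MP, only Meg3 of the 3 stayed called, with Rian at -0.10 (edgeR adjusted p = 0.220) and Mirg at -0.22 (edgeR adjusted p = 0.115). Rtl1 was -0.25 (edgeR adjusted p = 0.1002) and Dlk1 -0.02 (edgeR adjusted p = 0.847), with Dlk1 at 127, 89.0, 249, 44.96 and 176 CPM in cycling cells against 163, 92.3, 258, 40.8 and 153 CPM in the others. Of 14660 genes tested, 35.9% were called in either direction and 17.7% as lower. Malat1 was lower in cycling cells too, at -0.51 (edgeR adjusted p = 6.71e-06), and its part in the Meg3 difference was not tested. In all, 55 to 181 cells per tumor held exactly 3 UMIs of the list and 112 to 358 held exactly 2, next to the threshold.

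Of 11 flanking genes, 2 rose and 0 fell in SyS-like against stromal cells, with Mok (log2 fold change 1.90) and Wdr20 (0.68), and their median was -0.01. Over all genes 16.0% were called higher and 29.3% in either direction there, so these counts are near or below the background. Against macrophage-like cells 4 rose and 3 fell, where 63.1% of all genes were called in either direction, with Begain highest (3.88) and Wars lowest (-0.52). Begain, the gene next to Dlk1 on the side away from Meg3, was the 1 of 11 flanking genes called higher in cells with a Dlk1 UMI (0.76, edgeR adjusted p = 0.0100). Its level was low, at 7.04 against 4.37 CPM, and 3.87% of all genes were called higher in that comparison. The unnamed noncoding transcript B830012L14Rik, between Rian and Mirg, was 94.3 to 180 CPM in SyS-like cells. Dio3, which ends the domain and inactivates thyroid hormone, was 1.98 to 9.09 CPM.

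Among 24 other imprinted genes, 6 rose and 4 fell of 21 tested against stromal cells, led by Asb4 (3.67) and Phlda2 (2.66) and with Slc38a4 (-4.38) and Igf2r (-2.17) lowest, and the median was -0.31, against 29.3% of all genes called in either direction. Against macrophage-like cells 18 of 19 rose and 0 fell, with a median of 3.15, against 36.2% of all genes called higher and a median of 0.23. Against endothelial-like cells 11 of 19 rose and 4 fell, with a median of 1.18, against 53.1% of all genes called in either direction. Plagl1 (4.22) was highest and Grb10 (-3.90) lowest there. In cycling cells 1 rose, the cell cycle inhibitor gene Cdkn1c (0.33), and 7 fell, of which Peg13 (-0.92) and Zrsr1 (-0.90) were lowest, out of 19 tested, against 17.7% of all genes called lower.

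Of the genes that set or keep imprints, 7 rose and 1 fell of 13 tested against stromal cells, with a median of 0.57, against 16.0% of all genes called higher and a median of 0.15. Aff3, which binds imprinted control regions, was 3.26 higher on the log2 scale and Zfp57, which protects imprints in embryos, 2.11 higher, while Tet2, which oxidizes methylated cytosine, was at -0.64. Against endothelial-like cells 4 of 13 rose and 1, Zfp57 (-1.09), fell, against 30.2% of all genes called higher. Against macrophage-like cells 6 rose and 3 fell, against 36.2% called higher. Of the 12-gene cell cycle list, 8 also rose against stromal cells, and the part of cycling in these counts was not tested. In cycling cells Uhrf1 (2.41) and Dnmt1 (1.52), which maintain DNA methylation at replication, were the highest of 6 that rose, and Zfp57 (-0.54) and Tet2 (-0.47) the lowest of 3 that fell, out of 13 tested, against 35.9% of all genes called in either direction.

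Among 12 genes of the Notch and adipocyte pathways that Dlk1 acts on, 2 rose and 4 fell against stromal cells, with a median of -0.65, against 16.0% of all genes called higher and 29.3% in either direction. Sox9 (1.37), a target that Dlk1 is known to raise, and the Notch target Hey1 (1.28) rose, and Cebpb (-4.46), an early adipocyte factor, and Notch3 (-4.14), the pericyte Notch receptor, fell. In cells with a Dlk1 UMI, Cebpb was the 1 of 9 tested that was called, and it was higher (0.46, edgeR adjusted p = 9.98e-06), against 6.28% of all genes called in either direction.

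Finally, genes were ranked by the likeness of their level to that of Dlk1 and to that of Meg3. The ranking used the 20 sums of 4 classes in 5 tumors, which share libraries and are dominated by the class differences. For Meg3 the nearest of 9847 genes was Rian (Pearson's r of log2 CPM + 1 of 0.99), followed by Pard3 (0.99), B830012L14Rik (0.99), Bmpr1a (0.98) and Ror1 (0.98), and Mirg ranked 16. For Dlk1 the nearest were Oxnad1 (0.92), Meis1 (0.92), Irx2 (0.92), Pmm1 (0.92) and Borcs8 (0.91), while Mirg ranked 21, Rian 68 and Meg3 165. So 2 of the 5 genes nearest to Meg3 lay in its own domain and none of the 5 nearest to Dlk1 did. Rtl1, under 10 CPM on average, was not ranked.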

How the data were processed

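Dissociated cells of 5 mouse tumors were profiled by 10x Genomics 3′ single-cell sequencing. The authors made the deposited matrices with Cell Ranger on mm10, as raw UMI counts per gene and called cell; whether intronic reads were counted is not given in the sources used here. Cells with at least 750 genes and at most 25% mitochondrial counts were kept, and the highest Scrublet doublet scores of each tumor (scanpy 1.11.5), 358 to 856 cells, were removed. Clustering used 3000 genes without the domain's genes, 30 components and Leiden resolution 1 (leidenalg 0.10.2). Classes were named from marker genes; the naming rule was changed once, after the first left many clusters unnamed, and the first rule is an alternative. The 5 genes, gene lists and tests were chosen with earlier results of these data known.

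UMI counts were summed per tumor and class and tested with edgeR 4.0.16 (quasi-likelihood, TMM, tumor as a block, no block for the labels), with Benjamini-Hochberg adjusted p under 0.05 over all genes as a call and DESeq2 1.42.0 as an alternative. Tests were also run on simulated counts built without tumor effects, and their outcome is not given here. Named genes are the 5 members, the 2 called with the highest and the 2 with the lowest log2 fold change of a list, the 5 highest and 5 lowest called genes by a Dlk1 UMI, and the 5 most like Dlk1 and Meg3. The similar list for cycling cells, not shown in the results, ran from Hist1h1b (5.91) to Sst (-2.91). p-values measure the spread between these tumors, whose separate origin is not stated. For single cells, cells with at least 3000 UMIs were thinned to 3000. Alternatives covered scaling, the filter on low counts, single tumors left out, doublets, cell filters, clustering, naming, the tumor block and depth. Positions are from GENCODE M21 and sequences from RefSeq.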

Additional observations from a re-analysis of the deposited data

Results flagged for a closer look

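A sample far from the others was found in 2 of 20 groups of 5 tumors, and chance flags about 1 in 20. SyS-like Rian was 535 CPM in PD+MP, with a gap to the next tumor of 0.920 of the whole range. Rtl1 in macrophage-like cells of BP replicate 1 was 0 CPM, where 3 UMIs would be 0.461 CPM.

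The SyS-like to stromal log2 ratio in MP+BP was opposite to that in BP, MP and PD+MP for Dlk1 (-0.74), Meg3 (-0.51), Rtl1 (-0.37) and Rian (-0.34), and the difference between tumors was not tested.

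The domain was also detected in cells outside the comparisons. Cells of 4 unnamed clusters held Dlk1 at 68.5 CPM, Meg3 at 1269.7 CPM, Rtl1 at 35.8 CPM, Rian at 417 CPM and Mirg at 57.7 CPM. They numbered 4334, of which 2268 came from MP+BP, so the SyS-like values may not cover all tumor cells. Clusters 8, 24 and 33 among them had the fibroblast marker Col3a1 among their leading genes. In each of these clusters the most counted markers were SyS markers, 7 to 9 of 15, and their EGFP was 25.3 to 35.8 CPM over the tumors, near the SyS-like level. The neutrophil-like cluster held Dlk1 at 52.6 CPM, Meg3 at 534 CPM, Rtl1 at 34.05 CPM, Rian at 175 CPM and Mirg at 49.5 CPM, from 34, 345, 22, 113 and 32 UMIs. In the 3 tumors with at least 20 such cells, Dlk1 was 19.1 to 155 CPM, Meg3 216 to 1698 CPM and EGFP 9.54 to 29.9 CPM, while EGFP in macrophage-like cells was 0.629 to 2.58 CPM. The part of tumor-cell RNA in these values was not tested.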

How the results depend on the processing

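Of the alternatives for single genes, 383 values kept their direction and side of the threshold, 25 fell under it, 2 rose past it and 11 reversed. The 2 genes called against stromal cells became 0 to 2 when 1 tumor was left out, 1 with doublets kept, with at least 1500 genes per cell, with no tumor block, under the first naming rule or with pericyte-like cells only, and 0 with at most 10% mitochondrial counts or after thinning the SyS-like sums to stromal depth. The 1 gene called beside a Dlk1 UMI became 0 with no tumor block and 2 at 6000 UMIs per cell. The 3 called in cycling cells became 0 with no tumor block and 1 to 3 when 1 tumor was left out. At 6000 UMIs the mean share of SyS-like cells with a UMI was 42.4% for Dlk1, 92.0% for Meg3, 72.6% for Rian, 20.9% for Mirg and 10.9% for Rtl1.

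Reversed values were all uncalled. Against stromal cells Meg3 was 0.165 with no scaling beyond library size, and leaving out 1 tumor gave -0.158 to 0.0683 (highest without MP+BP). Between labels Mirg was 0.00982 with no scaling. There, leaving out 1 tumor gave -0.848 to 0.134 for Meg3, -0.993 to 0.0370 for Rian, -0.256 to 0.146 for Mirg and -0.363 to 0.0239 for Rtl1, each lowest without MP and highest without PD+MP. Beside a Dlk1 UMI, Rtl1 was -0.159 without MP to 0.172 without BP replicate 2. In cycling cells Dlk1 was -0.109 without PD+MP to 0.0361 without BP replicate 1, and 0.0376 with doublets kept. The cause of these changes was not tested. With no scaling beyond library size, the median of all genes against stromal cells moved from 0.15 to 0.41 and the share of calls that were higher from 54.5% to 71.1%; beside a Dlk1 UMI that share moved from 61.5% to 33.7%. Between labels, no paired analysis was possible because only BP has more than 1 replicate, so groups share no more than replicate number 1; the comparisons within tumors were paired by the tumor block. Stromal depth, 8 to 126 Dlk1 UMIs per tumor, limits every stromal value.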
